A study of Mus musculus with 12 samples.

Results

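The genes described here make, inactivate or sense prostaglandins, and were taken as the rows of the deposited count table whose gene symbol was Ptgs1, Ptgs2, Ptges, Ptges2, Ptges3, Ptgds, Hpgd, Ptger1, Ptger3 or Ptger4. All 10 were among the 23378 genes of the table, and 9 of them were among the 14180 genes tested; Ptgds was too low to test. The 12 libraries came from kidney cortex cells of C57BL/6 mice of the nNosCreERT2-mTmG model. In these mice a tamoxifen-inducible Cre under the neuronal nitric oxide synthase gene (Nos1) switches a membrane reporter from red tdTomato to green GFP, so the sorted green population is the one in which that gene was active. The green cells are the macula densa samples, and the most intensely red ones served as control cells, which the submitters describe as distal tubule and collecting duct epithelium. For 14 days mice received control diet, or a low salt diet with enalapril, a blocker of angiotensin-converting enzyme, at 150 mg/L in the drinking water; the latter is called treatment below. This gave 2 macula densa libraries and 4 control-cell libraries for each diet. Low salt diet and enalapril were always given together, so their effects cannot be told apart. The labels do not say whether libraries came from separate animals, so p-values measure only the spread between these libraries.

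Prostaglandin synthesis starts when a phospholipase A2 releases arachidonic acid from membranes. The cyclooxygenases encoded by Ptgs1 and Ptgs2 turn it into prostaglandin H2, and terminal synthases turn that into prostaglandin E2 (Ptges, Ptges2, Ptges3) or D2 (Ptgds). Hpgd encodes the dehydrogenase that begins the breakdown of prostaglandin E2, and Ptger1, Ptger3 and Ptger4 encode its receptors EP1, EP3 and EP4. In the kidney the macula densa is known as a place of regulated Ptgs2 expression, linked to renin release from neighbouring cells, whereas Ptgs1 is known from collecting duct and vessels.

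The promoters of Ptgs2, of its isozyme gene Ptgs1 and of the receptor gene Ptger3 are shown because these 3 genes passed the test between the cell populations in both diets (below), Ptgs2 and Ptger3 higher and Ptgs1 lower in macula densa cells. RefSeq windows of the GRCm38.p6 assembly were found for 9 of the 10 genes, not for Ptger1. All 3 lie on the plus strand and are written 5′ to 3′, with the 250 bases before the start and, for Ptgs2 only, the first 30 bases after it. The windows are chr1:150099781-150100060 for Ptgs2, chr2:36230176-36230425 for Ptgs1 and chr3:157566626-157566875 for Ptger3. Capitals mark matches on either strand to 6 motifs. These were TTNNGNAA for C/EBP factors, CACGTG for the E-box, TGACG for the core of the cyclic AMP response element, TGANTCA for AP-1 factors, TATAAA for the TATA box, and GGGCGG for the GC box.
Ptgs2: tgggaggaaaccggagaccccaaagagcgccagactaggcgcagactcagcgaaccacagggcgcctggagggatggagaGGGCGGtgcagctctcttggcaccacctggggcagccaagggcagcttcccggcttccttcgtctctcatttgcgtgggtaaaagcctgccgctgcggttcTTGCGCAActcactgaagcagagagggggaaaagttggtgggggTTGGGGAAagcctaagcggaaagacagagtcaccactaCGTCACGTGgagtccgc
Ptgs1: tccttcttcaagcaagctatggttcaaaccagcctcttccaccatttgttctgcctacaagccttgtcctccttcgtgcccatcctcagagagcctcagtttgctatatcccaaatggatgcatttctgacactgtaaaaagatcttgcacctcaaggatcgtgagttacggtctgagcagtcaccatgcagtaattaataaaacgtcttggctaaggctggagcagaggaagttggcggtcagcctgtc
Ptger3: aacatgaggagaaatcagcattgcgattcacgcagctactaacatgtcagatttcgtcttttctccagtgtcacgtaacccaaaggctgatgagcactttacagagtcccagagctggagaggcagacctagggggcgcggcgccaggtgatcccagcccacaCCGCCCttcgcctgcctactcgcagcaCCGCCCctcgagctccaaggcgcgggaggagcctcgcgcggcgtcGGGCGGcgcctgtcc

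The Ptgs2 window held a GC box from -170 to -165 and C/EBP matches from -69 to -62 and from -25 to -18. It also held an E-box from 17 to 22 that shares 2 bases with a cyclic AMP core from 14 to 18. All positions count from the annotated RefSeq start. The start used in these cells was not measured and may differ, so matches may lie elsewhere relative to it. The Ptgs1 window held none of the 6 motifs, and the Ptger3 window held 3 GC boxes and none of the others. Among all 32851 promoter windows of the same 280 bases, 39.3% held a C/EBP match, 34.7% a GC box, 19.9% a cyclic AMP core, 13.1% a TATA box, 7.46% an AP-1 match and 6.79% an E-box. GC content over the 250 bases before the start was 61.6% for Ptgs2, 48.0% for Ptgs1 and 62.0% for Ptger3.

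Total counts per library ran from 4259020 to 14856542, but a ribosomal RNA locus (Gm42418) took 53.5% to 65.0% of them and nuclear protein-coding genes held 781257 to 2331481. Levels are given as CPM (counts scaled to a common library total), and 3 counts equalled 0.231 to 0.734 CPM. Macula densa libraries carried Nos1, Pappa2 and Slc12a1, the list taken for the macula densa, at a summed 2098 to 2881 CPM. Control cells held 42.1 to 430.1 CPM. Nos1 averaged only 0.343 CPM on control diet and 0.544 CPM under treatment in control cells, so their sums came almost wholly from Pappa2 and Slc12a1. Control-cell libraries held collecting duct principal-cell markers (9 genes, 113.8 to 931.5 CPM against 11.9 to 44.8 CPM in macula densa libraries), but also podocyte markers (8 genes, 44.4 to 1371 CPM against 19.2 to 155 CPM) and endothelial markers (9 genes, 48.1 to 1396 CPM against 10.3 to 158 CPM). The control population was thus a mixture by these markers and not only tubule epithelium. Proximal tubule markers (9 genes) went the other way on control diet, at 125.5 to 207 CPM in macula densa libraries against 35.2 to 86.2 CPM in control cells. Under treatment they ran from 40.4 to 85.3 CPM against 10.3 to 60.4 CPM. Macula densa libraries were thus not free of transcripts of other segments. Control-cell replicate 4 on control diet stood apart, with the highest principal-cell sum (931.5 CPM), the highest intercalated-cell sum (376.0 CPM) and the lowest podocyte and endothelial sums. In sorted bulk libraries, fewer cells of a type and less RNA per cell cannot be told apart.

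Of the 9 tested genes, Ptgs2 and Ptger3 were higher and Ptgs1 and Ptger1 lower in macula densa cells than in control cells on control diet. Of all tested genes, 2.69% were called higher and 3.92% lower in that comparison. Under treatment the same comparison called Ptgs2 and Ptger3 higher and Ptgs1 lower, beside 3.15% of all tested genes called higher and 4.13% lower. Averaged over both diets, Ptgs2 and Ptger3 were higher and Ptgs1, Ptger1 and Hpgd lower, beside 7.48% higher and 13.9% lower. A gene was called when its edgeR p, adjusted over all 14180 genes, was under 0.05. The balance of directions over all genes depended on scaling: it was 382 higher and 556 lower on control diet, but 542 and 328 when libraries were scaled by their totals alone, which moved the median log2 fold change of all genes from -0.05 to 0.12. The corresponding splits were 446 and 585 against 736 and 392 under treatment, and 1061 and 1966 against 1827 and 1450 for the mean. The median log2 fold change of the 9 genes was -0.30, 0.26 and -0.04 in the 3 comparisons, against -0.05, -0.06 and -0.06 over all genes.

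**Figure D1:**
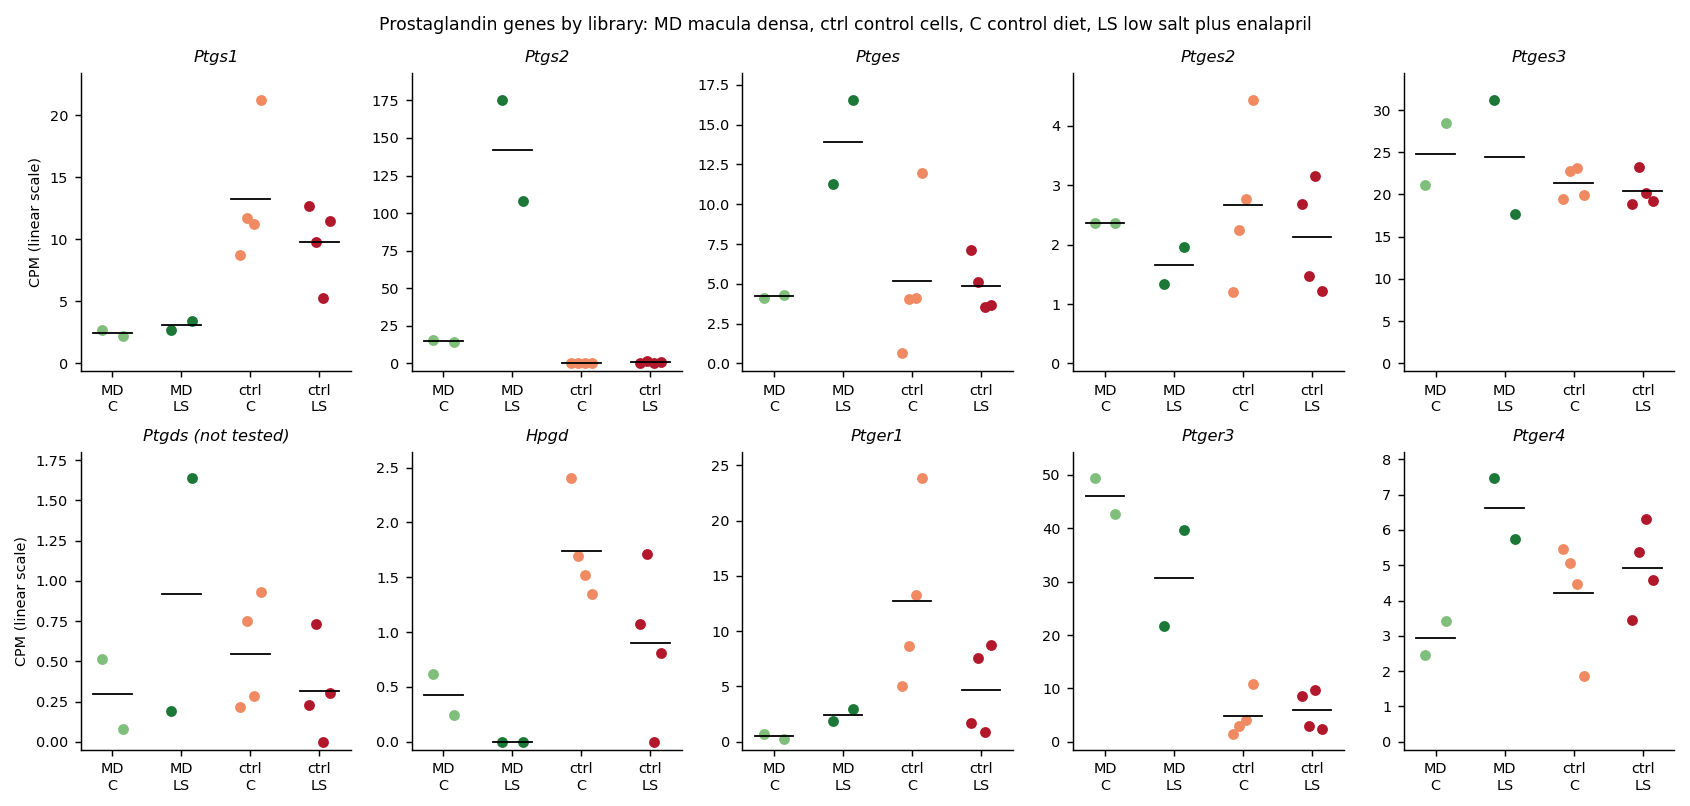
Level of each of the 10 genes in CPM (linear vertical axes that differ between panels) in every library, by cell population and diet; points are libraries and lines are group means. Ptgs2 and Ptger3 are higher in every macula densa library than in any control-cell library, and Ptgs1 is lower in every one.

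Ptgs2 (chromosome 1, 150100031 to 150108227, plus strand), the inducible cyclooxygenase, measured 15.9 and 14.3 CPM in the macula densa libraries on control diet and 175 and 108 CPM in those under treatment. In control cells it measured 0, 0.376, 0.571 and 0 CPM on control diet and 0.231, 1.47, 0.420 and 1.12 CPM under treatment, that is, 0 to 11 counts in any library. Every macula densa library lay above every control-cell library. Between the cell populations the log2 fold change was 5.85 (SE 0.68, edgeR adjusted p 0.000611) on control diet and 7.56 (SE 0.65, edgeR adjusted p 8.53e-05) under treatment. Ptgs2 ranked 37th and 10th by p among the 14180 genes. It was called in each of the 21 alternative analyses of both comparisons.

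Ptgs1 (chromosome 2, 36230426 to 36252272, plus strand), the constitutive cyclooxygenase, went the other way. It measured 2.67 and 2.20 CPM in macula densa cells on control diet and 2.68 and 3.44 CPM under treatment. Control cells measured 8.75, 11.7, 11.2 and 21.3 CPM on control diet and 12.7, 9.79, 5.25 and 11.5 CPM under treatment, so the cell populations did not overlap. This gave a log2 fold change of -2.44 (SE 0.44, edgeR adjusted p 0.0083) on control diet and -1.69 (SE 0.45, edgeR adjusted p 0.0412) under treatment. The call on control diet ended without macula densa replicate 1 or 2 of that diet (adjusted p 0.0743 and 0.152), and the call under treatment ended in 12 of 21 alternatives. Of the 12 libraries, only leaving out control-cell replicate 1 or 4 of control diet or replicate 3 under treatment kept it; without each of the other 9 the adjusted p was 0.0557 to 0.179. The mean over both diets (-2.06, SE 0.31, edgeR adjusted p 0.000997) was called in all 20 of its alternatives. Of its exonic bases, 148 also belong to the antisense gene Gm43621.

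The share of Ptgs2 in the summed Ptgs1 and Ptgs2 counts compares the isozymes inside each library and does not depend on scaling. It was 85.6% (Wilson 95% interval 79.8% to 90.0%) and 86.6% (81.2% to 90.6%) in macula densa cells on control diet. Under treatment it was 98.5% (97.5% to 99.1%) and 96.9% (95.3% to 98.0%). Control cells on control diet held 0%, 3.10%, 4.84% and 0%, where the counts of 0 allow up to 3.75% and 1.46%. Control cells under treatment held 1.79%, 13.04%, 7.41% and 8.87%, from only 27 to 168 counts of both genes. Both kinds of limit describe counting error alone, because reads lacking molecular identifiers may copy 1 molecule. Ptgs2 was thus the main cyclooxygenase transcript of the macula densa libraries and Ptgs1 that of the control-cell libraries. The difference of 87.0 percentage points between the populations had a two-sided exact permutation p of 0.00444, the smallest that the 225 permutations within diets allow. The interval bounds of both diets did not overlap in macula densa cells, but an exact permutation test of 2 against 2 libraries cannot reach 0.05, and none was run. In control cells the diets differed by 5.79 points (exact permutation p 0.0857, two-sided, 70 permutations; 4 against 4 libraries), which did not pass 0.05; without replicate 1 under treatment it was 7.79 points (p 0.0286, exact).

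**Figure D2:**
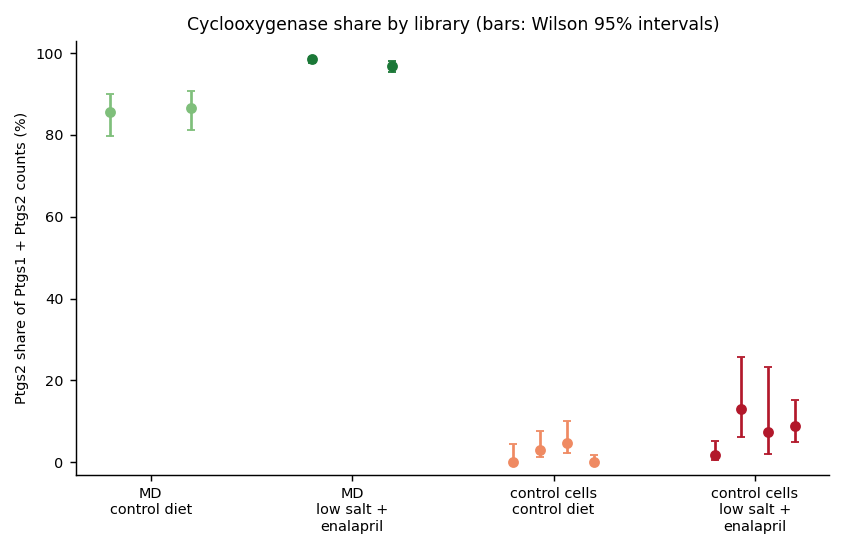
Share of Ptgs2 in the summed counts of Ptgs1 and Ptgs2 (percent) for each library, by cell population and diet; bars are Wilson 95% intervals. Macula densa libraries lie between 85.6% and 98.5% and control-cell libraries between 0% and 13.04%.

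Of the prostaglandin E2 synthases, none was called in any comparison by the main edgeR fit, which took all 12 libraries without a replicate block. With the number in the description labels as a replicate block, edgeR called Ptges higher in macula densa cells under treatment and over both diets (adjusted p 0.0105 and 0.0298). The labels do not say that this number pairs samples. Ptges (chromosome 2, 30889471 to 30929863, minus strand), the inducible microsomal synthase that is known to couple to Ptgs2, measured 4.10 and 4.32 CPM in macula densa cells on control diet. It measured 11.3 and 16.6 CPM there under treatment, above both libraries on control diet. Control cells held 0.656, 4.04, 4.09 and 11.98 CPM on control diet and 7.15, 5.14, 3.57 and 3.66 CPM under treatment. The log2 fold change between populations was -0.30 on control diet (95% interval -1.82 to 1.22, edgeR adjusted p 0.844), and 0.51 without control-cell replicate 4 of that diet, which held the 11.98 CPM. Under treatment it was 1.496 (95% interval 0.045 to 2.95, edgeR adjusted p 0.184); a fit of only the libraries of that diet called it (adjusted p 0.0337).

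Ptges3 (chromosome 10, 128058954 to 128077272), the cytosolic synthase that is also the p23 co-chaperone, ranged from 17.7 to 31.2 CPM in macula densa cells and 18.9 to 23.3 CPM in control cells. Its log2 fold change over both diets was 0.24 with a 95% interval of -0.13 to 0.61, so a difference above 0.61 lay outside the interval. Ptges2 (chromosome 2, 32395896 to 32405772), the second membrane-associated synthase, ran from 1.34 to 2.36 CPM in macula densa cells and 1.20 to 4.44 CPM in control cells, with a log2 fold change of -0.27 (95% interval -1.10 to 0.57). Ptgds (chromosome 2, 25466709 to 25470046), the lipocalin-type prostaglandin D synthase, had 0 to 10 counts in any library. Its levels of 0.0815 to 1.64 CPM in macula densa cells and 0 to 0.930 CPM in control cells were at or near the limit that 3 counts set, and no difference was detectable at this depth.

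Hpgd (chromosome 8, 56294585 to 56321043) measured 0.616 and 0.244 CPM in macula densa cells on control diet, and had 0 counts in both macula densa libraries under treatment. Control cells held 2.41, 1.69, 1.52 and 1.34 CPM on control diet and 1.08, 1.71, 0 and 0.814 CPM under treatment, where 1 library also had none. Under treatment the control-cell mean was 1.69-fold the level that 3 counts set in the macula densa libraries, which were at this floor. The populations overlapped there, through the control-cell library without counts, and Hpgd was not called (edgeR adjusted p 0.0770). The DESeq2 Wald test gave an adjusted p of 0.0289, and edgeR without control-cell replicate 3 under treatment gave 0.0246. Over both diets Hpgd was called lower (edgeR adjusted p 0.0185), a call that ended in limma voom (adjusted p 0.0690) and without macula densa replicate 2 of either diet (0.0614 and 0.0638).

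Among the receptors, Ptger3 (chromosome 3, 157566892 to 157645888, plus strand) was the one called higher in macula densa cells. It encodes EP3, which is known to couple to inhibitory G proteins. It measured 49.4 and 42.7 CPM on control diet and 21.6 and 39.7 CPM under treatment in macula densa cells. Control cells held 1.42, 3.01, 4.09 and 10.8 CPM on control diet and 8.53, 2.94, 9.66 and 2.44 CPM under treatment, below every macula densa library. Its log2 fold change was 3.25 (SE 0.64, edgeR adjusted p 0.0129) on control diet, 2.37 (SE 0.65, edgeR adjusted p 0.0460) under treatment and 2.81 (SE 0.45, edgeR adjusted p 0.00154) over both. The first call ended without macula densa replicate 1 or 2 of control diet (adjusted p 0.0758 and 0.0922), and the second ended in 12 of 21 alternatives, 9 of them the same 9 single libraries as for Ptgs1 (adjusted p 0.0619 to 0.297). The mean over both diets was called in all 20 of its alternatives.

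Ptger1 (chromosome 8, 83666678 to 83672753, plus strand), the gene of EP1, measured 0.718 and 0.244 CPM in macula densa cells on control diet and 1.92 and 2.95 CPM under treatment. Control cells held 5.03, 8.64, 13.2 and 23.9 CPM on control diet and 1.69, 7.59, 0.840 and 8.75 CPM under treatment. The populations were apart on control diet and overlapped under treatment. The log2 fold change was -4.73 (SE 1.06, edgeR adjusted p 0.0221) on control diet, -0.93 (edgeR adjusted p 0.540) under treatment and -2.83 (SE 0.69, edgeR adjusted p 0.0126) over both. The difference between the diets in this contrast, 3.80 on the log2 scale, had an unadjusted p of 0.0143 and an edgeR adjusted p of 0.643, so it was not called. The control diet call was kept in 16 of 21 alternatives and ended, among others, without macula densa replicate 1 or 2 or control-cell replicate 3 of that diet (adjusted p 0.103, 0.217 and 0.0503) and in limma voom (0.106), and the mean's call ended without macula densa replicate 2 of control diet (0.0699) and in limma voom (0.104). Whether counting used strand is not known, so the values of Ptger1, the most uncertain of the 10 genes in this respect, may hold counts that are not its own.

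Ptger4 (chromosome 15, 5206661 to 5244187, minus strand), the gene of EP4, which is known to raise cyclic AMP, was not called. It measured 2.46 and 3.42 CPM in macula densa cells on control diet and 7.47 and 5.74 CPM under treatment. Control cells held 5.47, 5.07, 4.48 and 1.86 CPM on control diet and 3.46, 5.39, 6.30 and 4.58 CPM under treatment, overlapping the macula densa libraries in both diets. The log2 fold change between the populations was -0.51 (95% interval -1.41 to 0.38) on control diet and 0.44 (-0.43 to 1.32) under treatment. Of the 6648 exonic bases of Ptger4, 1097 are shared with genes on the opposite strand.

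**Figure D3:**
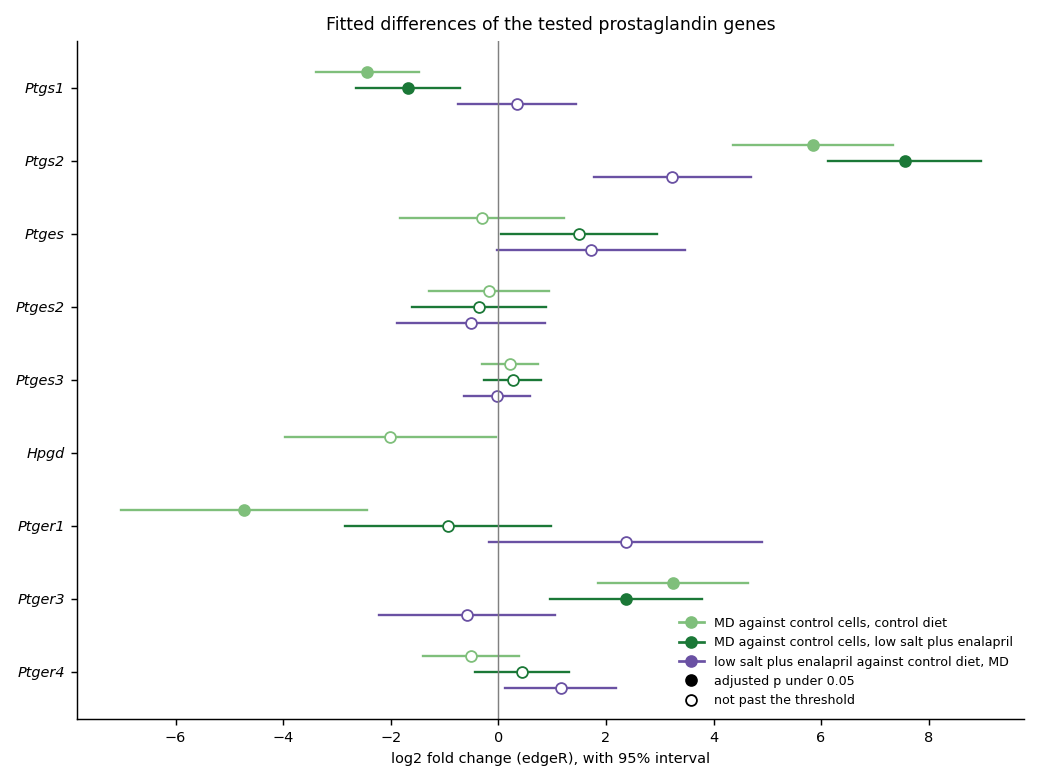
Log2 fold change with 95% interval for the 9 tested genes in 3 comparisons; filled points passed an adjusted p of 0.05, and Hpgd is drawn only where neither group had every library at or under 3 counts. The intervals of Ptgs2 lie above 0 in the 3 comparisons, and its diet difference within macula densa cells (purple) is drawn open because the adjusted p was 0.215.

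Per kilobase of exon, Ptges3 had the highest mean level of the 10 genes in macula densa cells on control diet (11.2 ± 2.35 CPM per kb, SD, n = 2), followed by Ptger3 (8.10 ± 0.841) and Ptgs2 (3.29 ± 0.254). Ptges (1.07 ± 0.0385) came next, and Ptgs1 (0.627 ± 0.0852), Ptges2 (0.467 ± 0.000397) and Ptger4 (0.443 ± 0.102) followed, with the last pair within their spread. Hpgd (0.256 ± 0.156), Ptgds (0.180 ± 0.185) and Ptger1 (0.0882 ± 0.0614) came last, within their spread of each other. Under treatment Ptgs2 came first (31.0 ± 10.4 CPM per kb, SD, n = 2), before Ptges3 (11.0 ± 4.31) and Ptger3 (5.39 ± 2.24), and Ptges (3.55 ± 0.947) again came next. In control cells on control diet the order began with Ptges3 (9.63 ± 0.862 CPM per kb, SD, n = 4), Ptgs1 (3.41 ± 1.42) and Ptger1 (2.33 ± 1.50), the latter 2 within their spread, and ended with Ptgs2 (0.0517 ± 0.0622). Under treatment Ptges3 (9.20 ± 0.896) and Ptgs1 (2.52 ± 0.839) again came first, and Ptgds (0.193 ± 0.186) and Ptgs2 (0.177 ± 0.127) last, within their spread. The cell populations thus differed in which of these transcripts were abundant, while the mean levels of Ptges3 in the 4 groups lay within their spread.

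The levels of several of these genes in control cells moved with markers of tubule segments on control diet. There, Ptgs1, Ptger1, Ptges and Ptger3 were each highest in replicate 4, the library with the highest principal-cell and intercalated-cell sums, and lowest in replicate 1, which had the lowest sums (143.6 and 25.7 CPM). So were Ptges2 and, at few counts, Ptgds. Hpgd and Ptger4 went the other way, at 2.41 and 5.47 CPM in replicate 1 against 1.34 and 1.86 CPM in replicate 4. The podocyte sums (1371 against 44.4 CPM) and endothelial sums (1396 against 48.1 CPM) also fell between these libraries. Under treatment, Ptgs1 was highest in replicate 1 (382.6 CPM of principal-cell markers) and lowest in replicate 3 (113.8 CPM), but Ptger3 was highest in replicate 3. Ptger1 did not follow these sums under treatment: it measured 1.69 CPM in replicate 1 and 7.59 and 8.75 CPM in replicates 2 and 4. Ptger3 followed the summed markers of the thick ascending limb (7 genes), the segment that holds the macula densa. These were 86.8, 109.1, 285.0 and 546.5 CPM on control diet, in the same order as Ptger3, and 528.6, 177.0, 482.8 and 109.4 CPM under treatment, where the 2 libraries with the higher sums also had the higher Ptger3. The summed Nos1, Pappa2 and Slc12a1 in control cells had the same order as Ptger3 on each diet. In replicates 1 to 4 they were 42.1, 61.1, 223.7 and 310 CPM on control diet. Under treatment they were 221.2, 195.9, 430.1 and 144.7 CPM. Macula densa libraries had thick ascending limb sums of 703.4 and 892.0 CPM on control diet and 373.2 and 382.6 CPM under treatment, the latter below the highest control-cell sums. Principal-cell markers were low but not absent in macula densa libraries: Aqp2 measured 1.53 to 9.75 CPM there against 47.5 to 252 CPM in control cells, and Fxyd4 was at 0 in both macula densa libraries under treatment. The part of these cell types in the differences between the populations was not tested.

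**Figure D4:**
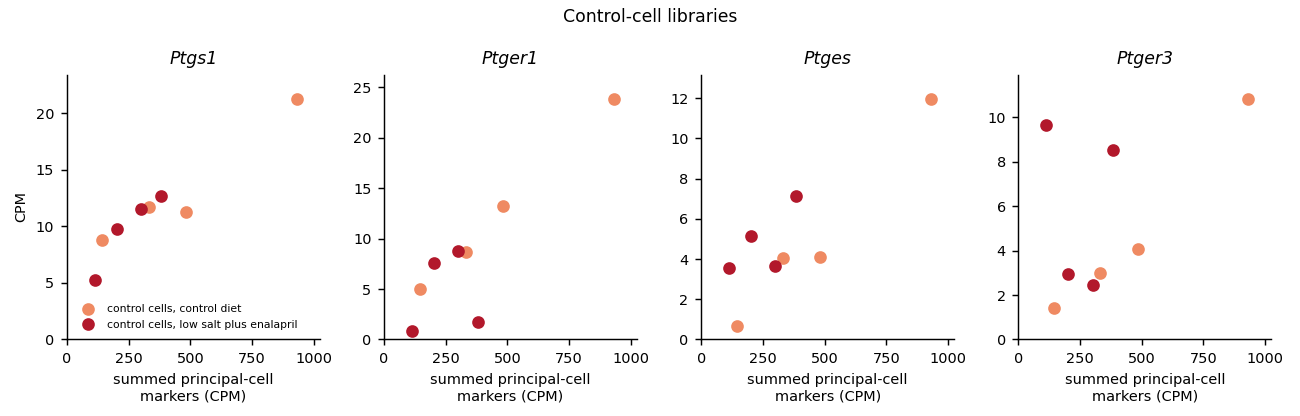
Levels of Ptgs1, Ptger1, Ptges and Ptger3 (CPM) in the 8 control-cell libraries against the summed level of 9 collecting duct principal-cell markers (CPM), with colours for the diets. The library farthest to the right, control-cell replicate 4 on control diet (931.5 CPM of markers), has the highest level of all 4 genes.

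Within macula densa cells, none of the 9 genes passed the test between the diets, where 0% of the 14180 genes were called by edgeR (the smallest adjusted p was 0.123; at an unadjusted p under 0.05 there were 1594). The level of Ptgs2 was nonetheless higher in both libraries under treatment than in both on control diet: its mean was 142 ± 47.6 CPM against 15.1 ± 1.16 CPM (SD, n = 2 each). Its log2 fold change was 3.23 (SE 0.67, 95% interval 1.77 to 4.69), with an unadjusted p of 0.000405, rank 24 of 14180, and an edgeR adjusted p of 0.215. Other tests called it: the DESeq2 Wald test gave an adjusted p of 0.000801 with 93 genes called, limma voom 0.00839 with 4 genes, and edgeR on the macula densa libraries alone 8.92e-05 with 105 genes. Marker sums also moved with diet in these libraries. The thick ascending limb sum was 703.4 and 892.0 CPM on control diet and 382.6 and 373.2 CPM under treatment, the proximal tubule sum 125.5 and 207.0 against 40.4 and 85.3 CPM, and the endothelial sum 157.9 and 22.4 against 13.4 and 10.3 CPM. Their part in the diet differences was not tested.

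Ptges and Ptger4 also had both libraries under treatment above both on control diet, with log2 fold changes of 1.72 (SE 0.81, edgeR adjusted p 0.452) and 1.16 (SE 0.47, edgeR adjusted p 0.398). The fit of the macula densa libraries alone called Ptges (adjusted p 0.0459). For Ptger1 the value was 2.36 (SE 1.17, edgeR adjusted p 0.476), from 3 to 7 counts on control diet and 10 to 18 under treatment. Ptgs1 (0.34, SE 0.50) and Ptger3 (-0.58, SE 0.75) had intervals that spanned 0, with both treated Ptger3 libraries below both on control diet.

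In control cells, none of the 9 genes passed the test between the diets, where 0.00705% of the genes (Ren1 alone) were called. Ptgs2 had a log2 fold change of 1.52 (95% interval -0.21 to 3.26, edgeR adjusted p 0.864) from 0 to 6 counts against 2 to 11. Ptgs1 had -0.42 (95% interval -1.09 to 0.26) and Ptger1 -1.43 (95% interval -2.82 to -0.050, edgeR adjusted p 0.760). Between the populations, a difference in diet effect was called for 0% of genes (the smallest edgeR adjusted p was 0.382; at an unadjusted p under 0.05 there were 997). For Ptgs2 it was 1.71 on the log2 scale (95% interval -0.69 to 4.11, edgeR adjusted p 0.788), for Ptges 1.80 (-0.34 to 3.94, 0.761) and for Ptger4 0.96 (-0.29 to 2.21, 0.774). No gene among the 10 was shown to respond differently in the 2 populations.

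Other genes of the pathway were read from 6 lists of 72 genes, of which 59 were in the table and 44 were tested. Between the populations 2 of the 44 were called higher and 1 lower on control diet, 3 higher and 2 lower under treatment, and 6 higher and 9 lower over both diets. Of all tested genes, 2.69% were higher and 3.92% lower on control diet, 3.15% and 4.13% under treatment, and 7.48% and 13.9% over both. Nothing is read from these counts beyond the single genes. No list gene was called between diets in either population or in the difference of the diet effects.

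Upstream of the cyclooxygenases, 1 of 7 tested phospholipases A2 was called higher in each diet, where 2.69% (control diet) and 3.15% (treatment) of all genes were. Pla2g4a, the cytosolic phospholipase A2 that releases arachidonic acid, measured 21.4 and 23.8 CPM in macula densa cells on control diet and 42.5 and 31.8 CPM under treatment, against 2.75 to 5.79 CPM in the 8 control-cell libraries. Its log2 fold change was 2.28 (SE 0.28, edgeR adjusted p 0.000771) on control diet and 3.10 (SE 0.28, edgeR adjusted p 0.000137) under treatment. Over both diets Pla2g12a, a secreted phospholipase, was also higher (0.83, SE 0.20, edgeR adjusted p 0.0130, kept in 17 of 20 alternatives). The 7 genes had a median log2 fold change of 0.18 over both diets, against -0.06 for all genes.

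Of 5 other prostanoid synthases, Tbxas1, which makes thromboxane A2, was called higher in both diets. It measured 16.7 and 12.5 CPM in macula densa cells on control diet and 37.9 and 16.6 CPM under treatment, against 1.02 to 2.94 CPM in control cells. Its log2 fold change was 3.12 (SE 0.41, edgeR adjusted p 0.00125) and 3.80 (SE 0.42, edgeR adjusted p 0.000468). The calls of Pla2g4a and Tbxas1 held in each of the 21 alternatives of both comparisons. Over both diets 2 synthases were called lower, where 13.9% of all tested genes were, and neither was called in either diet alone. These were Ptgis (prostacyclin synthase, at most 3 counts in every macula densa library) and Akr1b3, which are named after their values were seen. Their calls were kept in 13 of 19 and 16 of 20 alternatives.

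Of 7 genes of transport and inactivation, Slco2a1, the prostaglandin uptake transporter, was called lower under treatment. It measured 9.95 and 3.75 CPM in macula densa cells on control diet and 1.72 and 0.984 CPM under treatment. Control cells held 72.8, 58.8, 48.5 and 8.06 CPM on control diet and 24.6, 54.3, 31.3 and 62.9 CPM under treatment. The log2 fold change was -2.79 (edgeR adjusted p 0.0506) on control diet and -5.00 (SE 0.94, edgeR adjusted p 0.00992) under treatment. The low control-cell value on control diet, 8.06 CPM, was that of replicate 4, whose podocyte and endothelial sums were lowest; without it the gene was called there (-3.14, adjusted p 0.00199), and without macula densa replicate 1 or 2 under treatment the other call ended (0.0524 and 0.113), as it did in limma voom (0.153). Whether endothelial or podocyte RNA in control cells took part in this difference was not tested. Zadh2, a prostaglandin reductase, was higher under treatment (1.15, SE 0.29, edgeR adjusted p 0.0346, kept in 11 of 21 alternatives) and over both diets (0.86, SE 0.20, edgeR adjusted p 0.0107), and Abcc4, an exporter of prostaglandins, was higher over both (0.56, SE 0.13, edgeR adjusted p 0.0105).

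Of the other prostanoid receptors, 2 were tested, and neither was called in either diet alone. Both were called lower in macula densa cells over both diets, where 13.9% of all tested genes were. They are named after their values were seen. Ptgfr, the receptor of prostaglandin F2 alpha, measured 3.08 to 4.64 CPM in macula densa cells and 3.39 to 26.2 CPM in control cells (log2 fold change -1.82, SE 0.50, edgeR adjusted p 0.0222, kept in 14 of 20 alternatives). Tbxa2r, the thromboxane receptor, had 0 to 2 counts in each macula densa library and 0.207 to 6.45 CPM in control cells (edgeR adjusted p 0.0219, kept in 15 of 20 alternatives). On control diet its control-cell levels of 6.45, 5.07, 2.57 and 0.207 CPM followed the endothelial sums (1396, 1123, 753.1 and 48.1 CPM) and the podocyte sums (1371, 1090, 698.2 and 44.4 CPM). Under treatment it was at 4.65 and 3.76 CPM in replicates 2 and 4, which had the highest of both sums, and at 0.307 and 0.210 CPM in the others. The part of these cell types was not tested. Among 10 genes of other arachidonic acid routes, Alox12 was called lower under treatment (edgeR adjusted p 0.0232) and over both diets (0.00386), at 0.192 to 1.47 CPM in macula densa cells against 1.05 to 6.61 CPM in control cells. Cyp2j6, also named after its values were seen, was called higher over both diets. Of all tested genes, 7.48% were called higher and 13.9% lower in that comparison.

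Of 13 factors known to bind or activate the Ptgs2 promoter, none was called higher in macula densa cells in any comparison. Of all tested genes, only 2.69%, 3.15% and 7.48% were called higher on control diet, under treatment and over both. The shares called lower were 3.92%, 4.13% and 13.9%. With shares this small, nothing is read from the count for the 13 factors. Nfat5, the factor of the response to hypertonicity, was lower on control diet (56.3 ± 1.06 against 95.4 ± 12.7 CPM, SD, n = 2 and 4; log2 fold change -0.76, SE 0.20, edgeR adjusted p 0.0475, a call kept in 6 of 21 alternatives) and over both diets (-0.71, SE 0.14, edgeR adjusted p 0.00559). Over both diets Fos and Jun, named after their values were seen, were the 2 others called lower; their calls were kept in 14 and 9 of 20 alternatives (adjusted p up to 0.128 and 0.233). The list's median log2 fold change was -0.52 over both diets, against -0.06 for all genes.

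**Figure D5:**
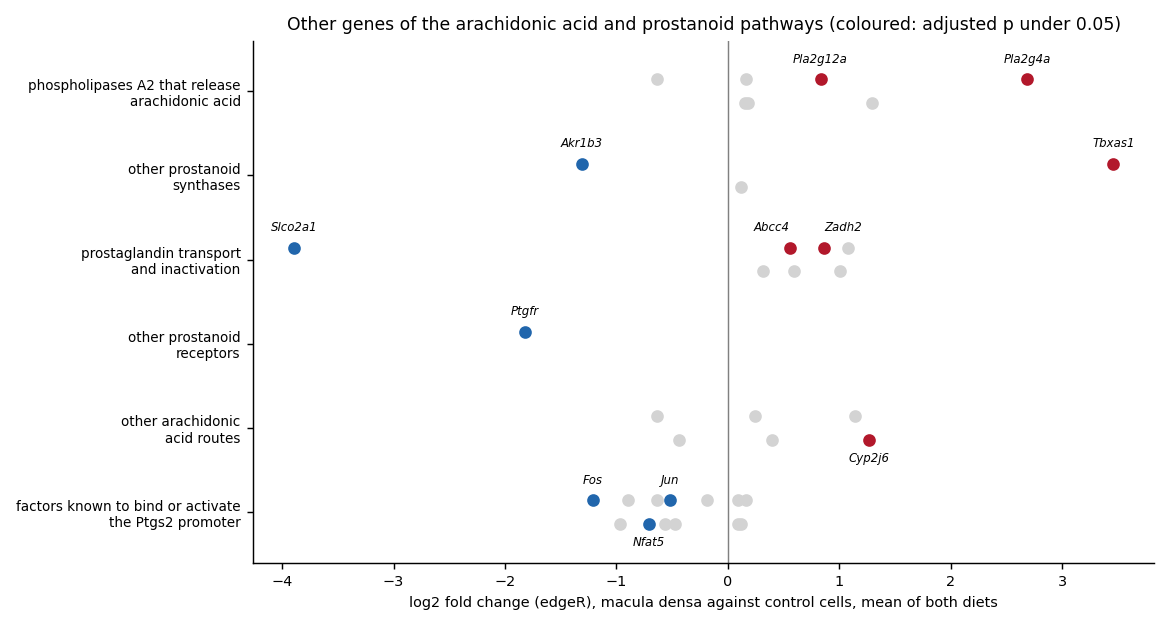
Log2 fold change of macula densa against control cells, mean of both diets, for the tested genes of 6 pathway lists; coloured and named points passed an adjusted p of 0.05, and genes with every library of a group at or under 3 counts (Tbxa2r, Ptgis and Alox12 among those called) are not drawn. Tbxas1 and Pla2g4a lie farthest to the right, and Slco2a1 farthest to the left.

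Between the diets, the list genes with the smallest p in macula densa cells were Jun, Mapk14 and Slco2a1, with log2 fold changes of 0.91, -1.44 and -2.33 and edgeR adjusted p-values of 0.287, 0.325 and 0.398. In control cells they were Cyp4a14, Cyp4a10 and Jun. Cyp4a14, a cytochrome P450 of the fatty acid omega-hydroxylases, measured 0.0785 ± 0.104 CPM on control diet and 7.93 ± 7.87 CPM under treatment (SD, n = 4; edgeR adjusted p 0.281). Cyp4a10 measured 0.142 ± 0.164 and 2.37 ± 2.48 CPM (edgeR adjusted p 0.543), and Jun had a log2 fold change of 0.58 (edgeR adjusted p 0.605). For the contrast of both diet effects they were Cyp4a14, Cbr3 and Pla2g16 (edgeR adjusted p 0.633, 0.684 and 0.709). None of these passed the threshold.

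The genes whose levels followed Ptgs2 most closely across the 12 libraries were Frem1, Nos1, Pamr1, Ksr2 and Mcub, out of 6687 genes with a mean of at least 5 CPM. Likeness was the root mean square difference of log2 CPM after each gene's own mean was subtracted, and it was 0.86 for Frem1, 1.19 for Nos1, 1.49 for Pamr1, 1.60 for Ksr2 and 1.60 for Mcub. Frem1 measured 11.1 ± 0.895 CPM in macula densa cells on control diet and 52.1 ± 16.8 CPM under treatment (SD, n = 2 each), and 0.419 ± 0.231 and 0.445 ± 0.384 CPM in control cells (SD, n = 4 each). Nos1, which drove the recombinase that marks the green cells, measured 106 ± 7.32 and 177 ± 78.2 CPM in macula densa cells and 0.343 ± 0.160 and 0.544 ± 0.159 CPM in control cells. Pamr1 measured 76.2 ± 12.05 and 99.2 ± 12.99 CPM in macula densa cells and 2.45 ± 1.495 and 4.01 ± 2.24 CPM in control cells. For Ksr2 the values were 16.8 ± 0.735 and 28.5 ± 5.745 CPM, and 1.40 ± 0.204 and 1.35 ± 0.262 CPM. Mcub measured 7.38 ± 0.299 and 27.4 ± 1.37 CPM in macula densa cells and 1.02 ± 0.887 and 1.39 ± 0.765 CPM in control cells. The measure rests on 12 libraries in 2 cell populations and is mostly set by the step between them.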

How the data were processed

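Libraries of sorted mouse kidney cortex cells were all made together from total RNA with a strand-preserving low-input kit, per the labels' protocols. Per the submitters' processing notes, STAR 2.61, Partek and the mm10 build were used; their roles, and whether counting used strand, are not given in the sources used here. The deposited table holds estimated counts per gene: 15.0% of values were not whole (tolerance 1e-09), and they were rounded before testing. No gene had a sum under 10. For 23351 of 23378 genes, symbol, start and end equalled GENCODE M21 of GRCm38 (the same assembly) after 1 was taken from the end; coordinates are from it. The table had 0 columns without a sample.

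Genes passing filterByExpr of edgeR 4.0.16 in R 4.3.3 (count minimum 10, total minimum 15) were scaled by TMM and fitted with 1 coefficient per group over all 12 libraries by the quasi-likelihood test, with Benjamini-Hochberg adjustment over 14180 genes and a threshold of 0.05. The fit was tested on simulated data. Each SE was derived from the test, as the absolute log2 fold change divided by the square root of its F value. The 95% intervals used this SE and a t distribution with 12.24 degrees of freedom. Both are approximate, above all where a group is near 0 counts. Log2 CPM used a prior count of 2. The share of Ptgs2 was compared by exact permutation over libraries. A group with at most 3 counts in each library was taken as at the floor. 1 item is not reported here. The 10 genes and the lists were chosen with earlier results of these data known. All 10 are named; list genes are named by the smallest adjusted p, up to 8 per comparison, or the 3 smallest p where none passed. Alternatives were other scalings, no filter, the DESeq2 1.42.0 Wald test, limma 3.58.1 voom, fits of only the groups compared, ribosomal and mitochondrial genes left out, blocks by label number and each library left out.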

Additional observations from a re-analysis of the deposited data

Results flagged for a closer look

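None of 22 sets of 4 control-cell libraries (each of the 10 genes and the Ptgs2 share, on each diet) held a library set apart from the others by the gap test used, where chance gives about 1 in 20 sets.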

How the results depend on the processing

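Leaving out each library in turn gave 122 to 2490 genes called between the populations on control diet (lowest without macula densa replicate 2, highest without control-cell replicate 4, both of control diet), with 1 to 4 of the 10 genes. Under treatment it gave 194 to 1894 (lowest without macula densa replicate 2 of that diet, highest without control-cell replicate 4 of control diet), with 1 to 4, and over both diets 1680 to 3968 (lowest without macula densa replicate 2 and highest without control-cell replicate 4, both of control diet), with 3 to 5. It gave 0 to 1 between diets in macula densa cells (1 without control-cell replicate 4 of control diet) and 1 to 5 in control cells (5 without control-cell replicate 4 under treatment). Where this left 1 macula densa library in a group, that library was assumed to vary like the other groups. The filter, which follows the smallest group, then kept 15841 to 16182 genes for testing, against 14180 in the main fit. Calls lost in such fits thus mix the missing library with a changed set of tested genes. The diet difference of the Ptgs2 share in control cells ran from 4.04 to 7.79 points, the latter without replicate 1 under treatment (exact permutation p 0.0286); the share between populations ran from 86.0 to 87.9.

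The DESeq2 Wald test called 2000, 1922, 93, 74 and 13 genes between populations on control diet and under treatment, then between diets in macula densa and in control cells, and in the difference of diet effects, against 938, 1031, 0, 1 and 0; voom called 1919, 516 and 4 in the first 3. Fits of only the groups compared called 468 on control diet, and 105 and 0 between diets in macula densa and control cells. Between diets in macula densa cells these 3 analyses called 1 (Wald), 1 (voom) and 2 (only the groups) of the 10 genes, and voom called 3 over both diets. The log2 fold change of Ptges between populations on control diet was 0.41 in voom, and ran from -0.65 to 0.51 (without control-cell replicate 1 and replicate 4 of that diet) with single libraries left out; for Ptges2 over both diets it was 0.014 in voom. The cause was not tested.

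Each of the 4 macula densa libraries shares its description number with 1 control-cell library of the same diet. The labels do not say that this number pairs samples, so the main fit used no pairing. Same-numbered libraries deviated together from their group means in 1 of 4 pairs by description number (r -0.04 to 0.23, threshold 0.1). By title number it was 2 of 14 pairs (r -0.38 to 0.28). Of the 4 macula densa libraries, 1 correlated best with the control-cell library of its own number, by either number. These values cannot decide whether the numbers pair samples. The 2 macula densa libraries of a diet deviate from their mean by equal and opposite amounts, so their correlations are not independent. With the title number as a replicate block 378, 396 and 1908 genes were called between populations on control diet, low salt plus enalapril and their mean, with 1 of the 10 genes under treatment, and 0 between diets in control cells. With the description number as a replicate block the counts were 2292 and 2231, with 5 of the 10 under treatment, and 3 for the difference of diet effects. Among the 10, this replicate block added calls of Ptges under treatment and over both diets (adjusted p 0.0105 and 0.0298) and of Ptger1 under treatment (0.0254), and the title number as a replicate block ended that of Ptger1 on control diet (0.0548). The log2 fold change of Ptges on control diet was 0.17 and 0.05 under these replicate blocks, and that of Ptges2 over both diets 0.014 and 0.13.

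With 2 macula densa libraries per diet and 3 counts at 0.231 to 0.734 CPM, the values of Ptgds, of Hpgd and of Ptger1 in macula densa cells rest on few counts.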
